A study of Homo sapiens with 4 samples.

Results

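The genes described here carry new proteins into the endoplasmic reticulum (ER) and fold them there: the signal recognition particle and its receptor, the Sec61 channel, the translocon-associated protein complex, signal peptidase, oligosaccharyltransferase, and a group of chaperones, disulfide isomerases and stress-induced genes. The 38 members were chosen by gene symbol. The rule itself uses no measured value, but the members were chosen with earlier results of these data known. All 38 were found among the 53777 Ensembl gene rows of the deposited table. RNA had been sequenced from NUGC3, an established human stomach cancer cell line, in 4 libraries. The genotype was wild type in 2 of them and MYC knockdown in the other 2, where MYC encodes a transcription factor of cell growth. No treatment, time after knockdown or knockdown reagent is given in the sources used here. All values are used as deposited by the authors and are taken to be FPKM, fragments scaled to transcript length and library size. No label or header names the unit, which was inferred from the values. If it holds, levels of different genes are per length and can be set side by side.

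A protein bound for secretion or for a membrane starts with a signal sequence. The signal recognition particle, an RNA with bound proteins, catches that sequence on the ribosome and docks at its receptor on the ER, and the chain then passes through the Sec61 channel. Signal peptidase removes the signal sequence, oligosaccharyltransferase attaches sugar chains, and calnexin, calreticulin and the disulfide isomerases help the chain to fold. When unfolded protein builds up, the sensors IRE1, PERK and ATF6 switch on the unfolded protein response, which raises transcription of many folding genes through ER stress elements in their promoters. Stomach epithelium secretes large amounts of enzyme and mucin, and relies on this route.

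Of the 38 members, 33 were matched to a promoter window in RefSeq (GRCh38.p14), which runs from 250 bases before to 50 bases after the annotated start. SRPR, SPCS1, RPN1, STT3B and PDIA3 were not matched. The ER stress element (ERSE, CCAAT and CCACG with 9 bases of any kind between them, searched on both strands) was found in 4 of the 33, CALR, CANX, PDIA6 and XBP1, and in 0.0916% of all 27305 genes with a window. The second ER stress element (ERSE-II, ATTGG and CCACG with 1 base of any kind between them, both strands) was found in HYOU1 and HERPUD1, and in 0.0696% of all genes with a window. These motifs were originally defined on promoters of genes that ER stress induces, so their presence in such genes is background and not a result. The following stretches show the elements because all 6 carriers were among the 16 members that lay lower in the knockdown without overlap; the other 10 held no element or had no matched window. CANX is not printed, because its element overlaps another annotated start of the gene. HSPA5, the main ER chaperone and no member, was added for comparison. Capitals mark the fixed letters of the motif, and each stretch is written in the direction of the gene.
CALR (chr19:12938374-12938412, plus strand; element 225 to 207 bases before the start): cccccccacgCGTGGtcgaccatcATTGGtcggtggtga
PDIA6 (chr2:10812843-10812881, minus strand; 86 to 68 bases before): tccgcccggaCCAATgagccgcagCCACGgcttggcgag
XBP1 (chr22:28800593-28800631, minus strand; 52 to 34 bases before): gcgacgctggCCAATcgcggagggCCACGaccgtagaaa
HYOU1 (chr11:119057264-119057294, minus strand; 79 to 69 bases before): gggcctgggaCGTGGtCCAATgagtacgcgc
HERPUD1 (chr16:56932015-56932045, plus strand; 117 to 107 bases before): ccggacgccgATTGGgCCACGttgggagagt
HSPA5 (chr9:125241381-125241419, minus strand; 66 to 48 bases before): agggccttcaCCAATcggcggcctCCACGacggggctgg
In CALR and HYOU1 the element runs in the opposite direction to the gene, so its reverse complement is printed. HYOU1 holds another ERSE-II match 185 to 175 bases before the start. No ERSE match overlapped an ERSE-II match among the members, since no member held both. A match is a stretch of letters and shows no binding.

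MYC itself stood at 82.9 and 82.0 FPKM (wild type) versus 65.0 and 75.8 FPKM (knockdown), a log2 change of −0.23 with a standard error of 0.10 (limma adjusted p = 0.237). The groups did not overlap, with the knockdown at 85.4% of the wild-type mean, and MYC protein was not measured. The wild-type libraries lay close together, with a median absolute log2 difference of 0.08 over 12953 genes, and the knockdown libraries lay 0.20 apart. MYC knockdown replicate 1 also stood apart in interferon-stimulated genes, with IFI6 at 375 FPKM against 10.2 to 11.6 FPKM in the other 3 libraries; its part in the results below was not tested. Epithelial markers were high in all 4 libraries (KRT18 at 1824 to 2131 FPKM, EPCAM at 181 to 209.8 FPKM), while PTPRC of leukocytes and COL1A2 of fibroblasts were listed at 0 in each. COL1A1 lay between 2.98 and 8.12 FPKM, and VIM reached at most 1.26 FPKM in 3 libraries and 8.32 FPKM in MYC knockdown replicate 2. The total FPKM was 739335 and 730732 in wild type and 708058 and 674328 in the knockdown. Nothing in the labels says that replicates came from separate cultures, so the tests measure only the spread between these libraries.

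The members were expressed at 10 FPKM or more in every library, and none of them differed between groups by more than 0.44 on the log2 scale. Limma called 0 of the 38 members at an adjusted p of 0.05, where it called 0.0% of all 12953 genes tested. At an unadjusted p under 0.05 there were 8 members, 4 higher and 4 lower in the knockdown, a share of 21.1% against 25.9% of all genes. At an adjusted p under 0.10, limma called 3 members, CALR and PDIA6 lower and SRP54 higher, a share of 7.89% against 10.4% of all genes. The median log2 change was −0.06 over the members and 0.04 over all genes, and it has no stable sign: with equal FPKM sums the medians were 0.04 and 0.12, and with quantile normalization −0.0052 and −0.0093. In the main fit of all 4 libraries, members were called at none of these thresholds more often than all genes. At the adjusted p of 0.05 this could not come out otherwise, since no gene was called. The changes of these 3 genes moved little with any library left out, from −0.37 to −0.45 for CALR, from −0.30 to −0.33 for PDIA6 and from 0.38 to 0.50 for SRP54, but the number of calls over all genes moved much. Without wild type replicate 1 or replicate 2 limma called 0 members at 0.10 and 0.0% and 0.00772% of all genes. Without MYC knockdown replicate 1 it called 7 members higher and 12 lower, and without replicate 2 it called 9 higher and 9 lower, where 40.9% and 41.4% of all genes were called. An absolute log2 change over 0.5 was seen in 0 of 38 members and in 15.7% of all genes.

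Both knockdown values lay outside both wild-type values for 29 of 38 members, 76.3%, against 58.6% of all genes tested. Of these members 16 were lower and 13 higher, or 42.1% and 34.2%, where 25.2% and 33.4% of all genes were lower and higher. The balance turns with the scaling: 8 members were lower and 18 higher with equal FPKM sums (18.1% and 44.7% of all genes), 19 and 9 with median-of-ratios scaling (30.7% and 29.3%), and 14 and 14 with quantile normalization (30.2% and 28.5%). Over the members the median absolute log2 difference was 0.03 between the wild-type libraries and 0.16 between the knockdown libraries; the part of this closeness in the share was not tested. The roles divided in direction. Of the 9 lectin chaperones, disulfide isomerases and stress-induced genes, 8 lay lower without overlap and 1, P4HB, lay higher. Of the 29 genes of targeting, channel and chain processing, 8 lay lower, 12 higher and 9 overlapped. The 29 were not uniform: role medians of the log2 change ran from −0.11 (signal recognition particle and receptor) to 0.17 (Sec61 channel and its partners). These 2 groupings join roles after the values had been seen and carry no test.

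**Figure D1:**
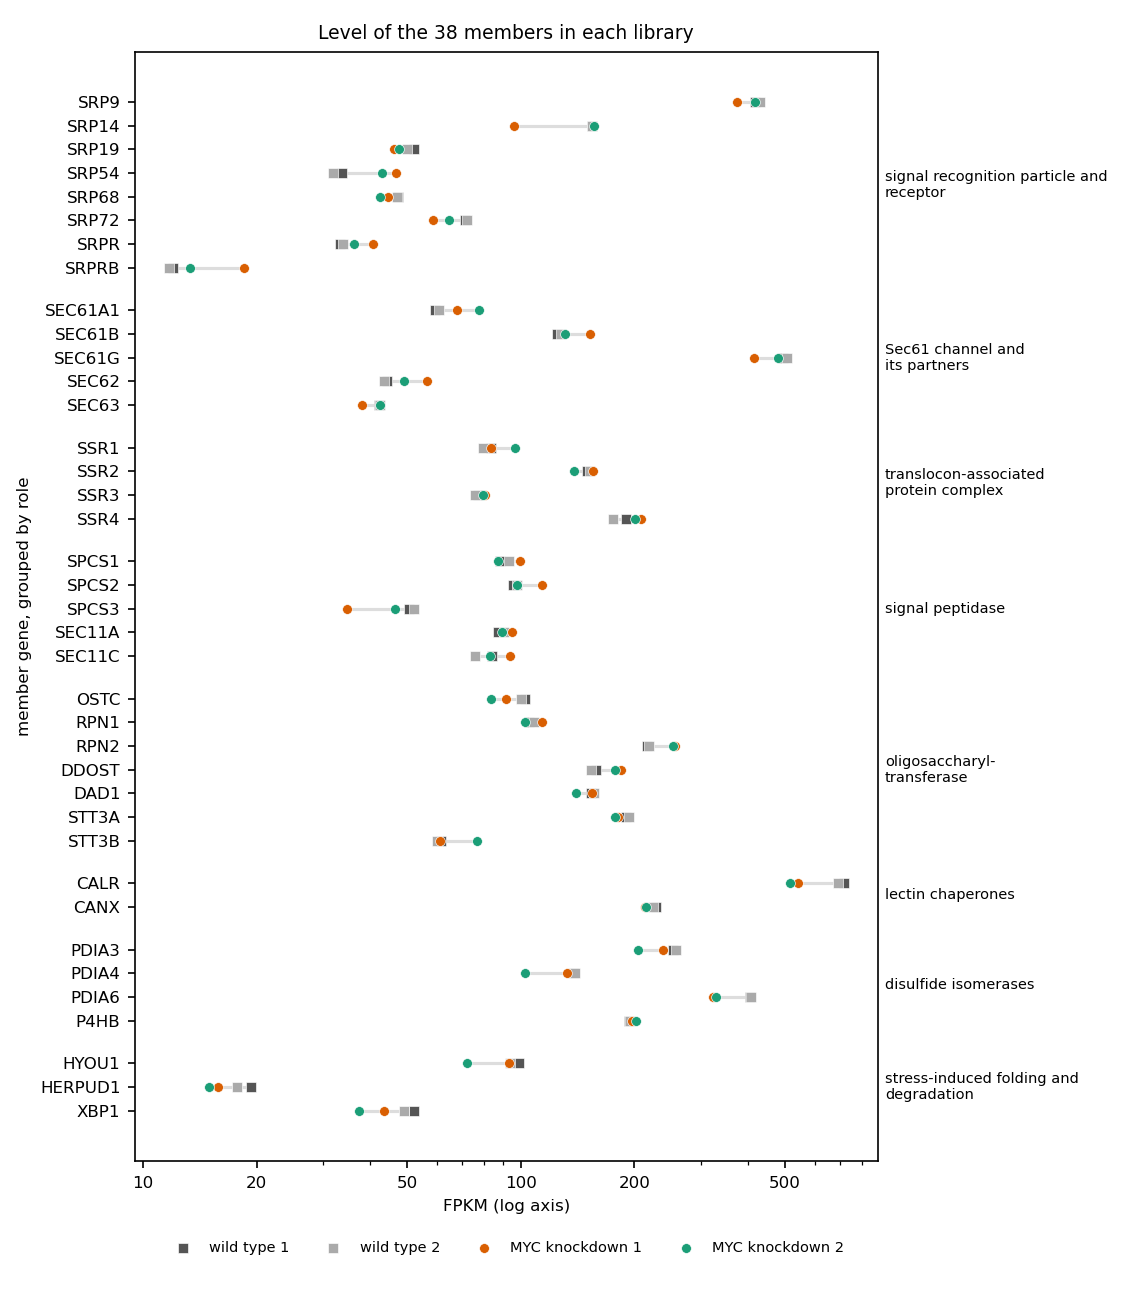
Level of each of the 38 members in FPKM (log axis) in the 4 libraries, grouped by role; squares are wild type, circles MYC knockdown, and the grey line joins the lowest and highest library. CALR, SEC61G, SRP9 and PDIA6 lie highest, SRPRB and HERPUD1 lowest, and the 4 libraries of most members lie close together.

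CALR encodes calreticulin, the soluble lectin chaperone that holds glycoproteins in the ER lumen, and was the most abundant member. It stood at 716 and 690.3 FPKM (wild type) versus 542 and 516 FPKM (knockdown), which gives 703 ± 18.3 and 529 ± 18.3 FPKM (SD, n = 2 in each group). Both knockdown libraries lay clearly below both wild-type libraries, at 75.2% of the wild-type mean. The log2 change of −0.41 ± 0.07 (standard error) had a limma adjusted p of 0.0665, and with quantile normalization it was −0.26 (limma adjusted p = 0.106). CALR (ENSG00000179218) lies on the plus strand of chromosome 19 from 12938578 to 12944489 (GRCh38, GENCODE release 29). In bulk RNA, fewer cells with a transcript and less of it per cell cannot be told apart. CANX, calnexin, the membrane-bound relative of calreticulin, lay closer to wild type: 228 and 225 FPKM in wild type and 214 and 214 FPKM in the knockdown. The groups did not overlap, but the log2 change was only −0.08, and once the FPKM sums of the libraries had been made equal it was 0.01, on the other side of 0.

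PDIA6, a disulfide isomerase that also interacts with HSPA5 and the stress sensors, stood at 403 and 406 FPKM (wild type) versus 322 and 329 FPKM (knockdown). Both knockdown libraries lay at the same lower level, 80.4% of the wild-type mean. Its log2 change was −0.31 ± 0.07 (limma adjusted p = 0.0848; ENSG00000143870, chromosome 2, 10783391 to 10837977, minus strand). PDIA3 (ERp57), which works with calnexin and calreticulin on glycoproteins, stood at 253 and 258 FPKM (wild type) versus 237 and 204 FPKM (knockdown). PDIA4 (ERp72) was at 138 and 139 FPKM (wild type) versus 133 and 103 FPKM (knockdown). For both genes MYC knockdown replicate 2 held most of the difference, and the limma adjusted p was 0.248 and 0.320. P4HB, the classical protein disulfide isomerase and a subunit of prolyl hydroxylase, was the exception among these enzymes. It stood at 194 and 195 FPKM (wild type) versus 197 and 202 FPKM (knockdown), a log2 change of 0.04 that turned to −0.01 with median-of-ratios scaling.

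XBP1, the transcription factor whose RNA is spliced by IRE1 during ER stress, stood at 52.4 and 49.1 FPKM (wild type) versus 43.4 and 37.3 FPKM (knockdown). The groups did not overlap, and the log2 change was −0.33 ± 0.11 (limma adjusted p = 0.151; ENSG00000100219, chromosome 22, 28794555 to 28800597, minus strand). FPKM per gene does not tell the spliced from the unspliced form. HERPUD1, a membrane protein of ER-associated degradation that ER stress strongly induces, stood at 19.4 and 17.8 FPKM (wild type) versus 15.8 and 15.0 FPKM (knockdown), a log2 change of −0.26. HYOU1, a large HSP70-related chaperone that also serves HSPA5 as a nucleotide exchange factor, was at 98.8 and 93.7 FPKM (wild type) versus 93.0 and 71.9 FPKM (knockdown). For HYOU1, MYC knockdown replicate 1 lay just under the wild-type pair and replicate 2 far under it, so its log2 change of −0.23 had a standard error of 0.14.

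The summed FPKM of the 9 folding and stress members was 2103 and 2073 in wild type and 1797 and 1692 in the knockdown. That of the 29 targeting, channel and processing members was 3478 and 3495 in wild type and 3461 and 3530 in the knockdown. The first sum was lower in both knockdown libraries, while the ranges of the second overlapped. The median log2 change of the 9 was −0.25, against 0.06 for the 29. It was −0.11 without MYC knockdown replicate 2 and −0.32 without MYC knockdown replicate 1, so the size, though not the sign, rests on which knockdown library is taken. With equal FPKM sums the medians were −0.15 and 0.15, and 7 of the 9 were negative.

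**Figure D2:**
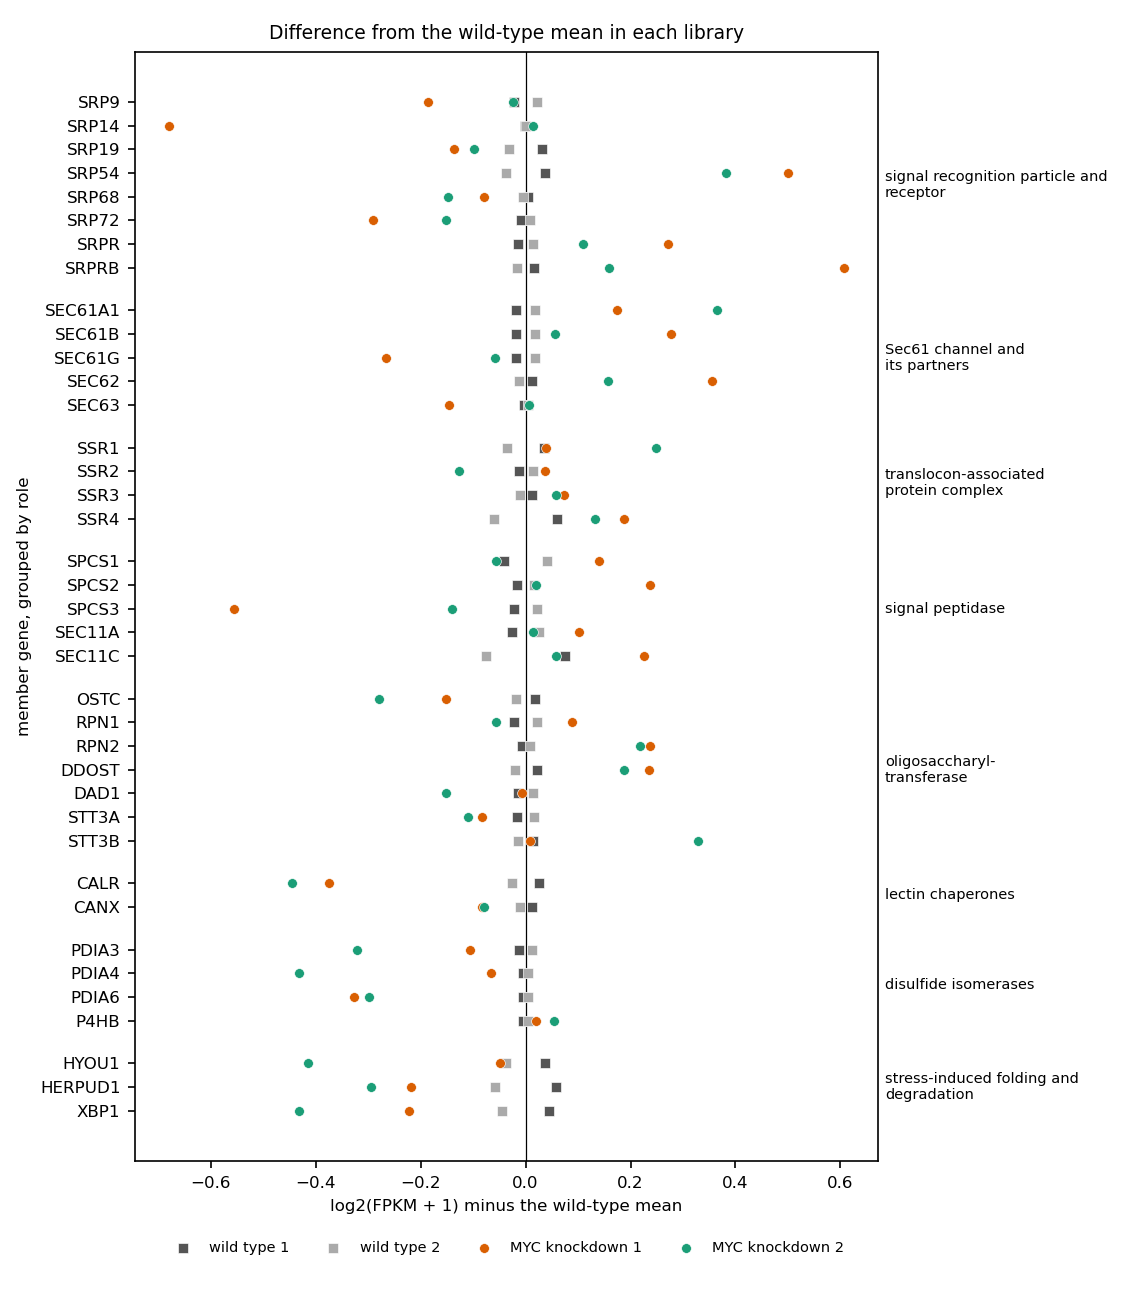
Difference of each library from the wild-type mean on the log2(FPKM + 1) scale for the 38 members, grouped by role; squares are wild type, circles MYC knockdown. In the bottom 3 groups the knockdown circles lie left of the wild-type squares for 8 of 9 genes, and in the upper groups they lie on either side.

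The 6 members with an ERSE or ERSE-II in the promoter window were all lower in the knockdown without overlap, against 25.2% of all genes tested. Their log2 changes ran from −0.41 (CALR) to −0.08 (CANX), with a median of −0.28. All 6 belong to the 9 folding and stress members, of which 8 were lower, so element and role cannot be told apart here. Of the folding members with a window but no element, PDIA4 was also lower without overlap (−0.25) and P4HB higher (0.04). Among the 27 other members with a matched window, 9 were lower, 12 higher and 6 overlapped, with a median of 0.04. Over all genes tested, 33.4% were higher without overlap. With equal FPKM sums 5 of the 6 remained negative. The elements did not go with one direction outside the members. In the 133 matched genes of the related lists, chosen by function with earlier results known, 6 held an element. Of these, 3 were lower and 3 higher without overlap, with a median log2 change of −0.09. Of the 127 without an element, 23 were lower, 54 higher and 50 overlapped, with a median of 0.10. HSPA5 (BiP) stood at 263 and 259.7 FPKM against 187 and 177 FPKM, and HSP90B1 (GRP94), the ER member of the HSP90 family, at 584 and 562 against 504 and 467 FPKM. SDF2L1, a partner of ER chaperones, was at 53.2 and 53.1 against 46.3 and 40.9 FPKM. By contrast ERO1B, an oxidase that recharges disulfide isomerases, was at 10.2 and 10.6 against 15.1 and 13.6 FPKM. CRELD2 and ALG12, which lie head to head and share 1 element, had log2 changes of 0.07 and 0.16.

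**Figure D3:**
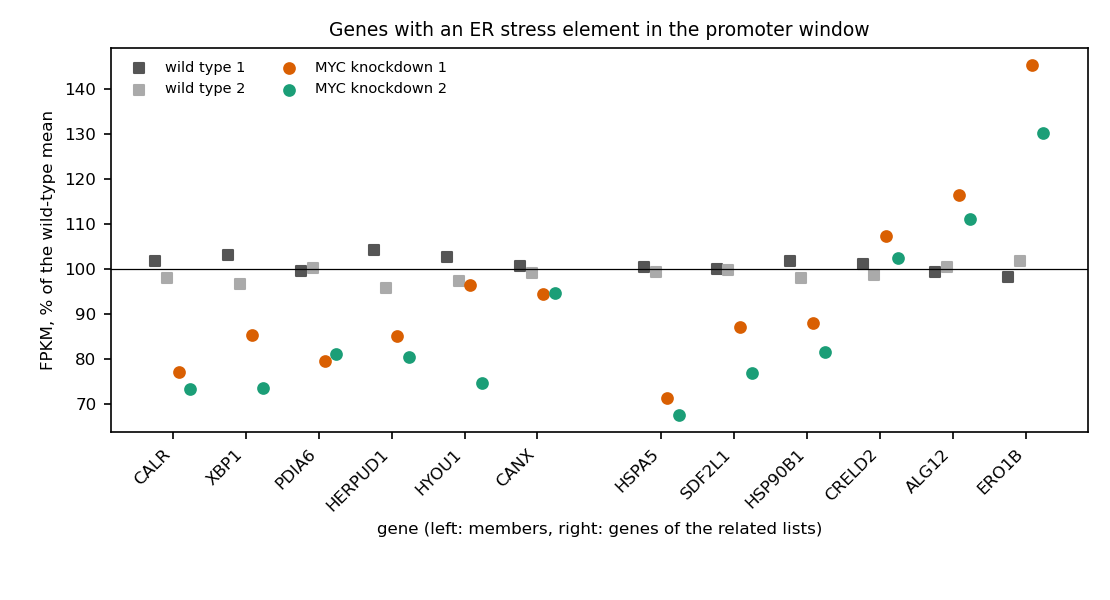
FPKM of each library as a percent of the wild-type mean for the 6 members (left) and the 6 genes of related lists (right) whose promoter window holds an ERSE or ERSE-II; squares are wild type, circles MYC knockdown. The circles of all 6 members lie below their wild-type squares, while on the right HSPA5, SDF2L1 and HSP90B1 lie below and CRELD2, ALG12 and ERO1B above.

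The E-box CACGTG, the motif that MYC binds with MAX, was found in 6 of the 33 matched members (18.2%) and in 8.77% of all genes with a window. In the related lists it was found in 22 of 133 matched genes (16.5%), so the share is not particular to the members. The members that carry it were SSR1, SSR3, SEC11C, DDOST, CANX and HERPUD1. Their log2 changes were 0.14, 0.07, 0.14, 0.21, −0.08 and −0.26, so the carriers lay on both sides of 0. The word reads the same on both strands, and in HERPUD1 it did not overlap the ERSE-II match.

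SRP54, the GTPase subunit of the signal recognition particle that binds the signal sequence, was the member with the largest log2 change. It stood at 33.6 and 31.9 FPKM (wild type) versus 46.6 and 43.0 FPKM (knockdown), or 136.9% of the wild-type mean. Both knockdown libraries were well above both wild-type libraries, and the log2 change was 0.44 ± 0.09 (limma adjusted p = 0.0796; ENSG00000100883, chromosome 14, 34981957 to 35029567, plus strand). The other subunits of the particle went the other way or overlapped. SRP72 and SRP68, which form a heterodimer on the particle's RNA, had log2 changes of −0.22 and −0.11, and SRP19, an assembly subunit, of −0.12. In each of these 3 the groups did not overlap, and none had a limma adjusted p under 0.195.

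SRP9 and SRP14 form the dimer that slows translation while the ribosome docks. SRP9 was at 418 and 431 FPKM (wild type) versus 373 and 418 FPKM (knockdown), and the last 2 values show that MYC knockdown replicate 2 was level with wild type. SRP14 stood at 154, 155, 96.04 and 156 FPKM in the same order of libraries. The low SRP14 value belongs to MYC knockdown replicate 1 alone, the library with the high interferon-stimulated genes. Without it the SRP14 log2 change was 0.01, against −0.33 with all 4 libraries. An SRP9 pseudogene row, SRP9P1, held 0.83 to 6.13 FPKM, and reads that the gene and its near-identical copy share cannot be assigned with certainty. The same holds for SPCS2 with SPCS2P4 (5.66 to 10.9 FPKM) and PDIA3 with PDIA3P1 (up to 10.6 FPKM).

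The receptor that receives the particle has an alpha subunit, SRPR (SRPRA), and a membrane-anchored beta subunit, SRPRB. SRPR stood at 33.2 and 33.8 FPKM (wild type) versus 40.7 and 36.2 FPKM (knockdown). SRPRB, the least abundant member, stood at 12 and 11.7 FPKM (wild type) versus 18.6 and 13.4 FPKM (knockdown). Both subunits were higher without overlap, with MYC knockdown replicate 1 the higher of the pair, and the limma adjusted p was 0.276 and 0.245.

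SEC61A1, the pore-forming subunit of the translocation channel, stood at 59.4 and 61.0 FPKM (wild type) versus 68.0 and 77.7 FPKM (knockdown). Its log2 change was 0.27 ± 0.10 (limma adjusted p = 0.175), and here MYC knockdown replicate 2 was the higher. SEC61B, a small subunit, was also higher without overlap, at 124 and 128 against 153 and 131 FPKM. SEC61G, the other small subunit, was lower without overlap, at 493 and 506 against 415 and 479 FPKM, but its log2 change of −0.16 shrank to −0.0068 with quantile normalization. The RNAs of the 3 subunits were unequal in level as well as in direction: the wild-type means were 60.2 FPKM for SEC61A1, 126 FPKM for SEC61B and 499 FPKM for SEC61G, although 1 of each is known to make up the channel. SEC62, which helps short or late precursors into the channel, stood at 44.3 and 43.6 against 56.5 and 49.2 FPKM. Its partner SEC63 overlapped between the groups, at 42.2 and 42.4 against 38.1 and 42.5 FPKM.

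The translocon-associated protein complex sits beside the channel and helps some signal sequences to open it. SSR4 stood at 191 and 175 FPKM (wild type) versus 208 and 200.5 FPKM (knockdown), the largest log2 change of the complex at 0.16. SSR1 and SSR3 were also higher without overlap, at log2 changes of 0.14 and 0.07, and SSR2 overlapped at −0.04. None of the 4 passed the test, with limma adjusted p between 0.278 and 0.781.

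Signal peptidase has a catalytic subunit, SEC11A or SEC11C, and the accessory subunits SPCS1, SPCS2 and SPCS3. SPCS3, the counterpart of an essential yeast subunit, stood at 50.6 and 52.2 FPKM (wild type) versus 34.6 and 46.5 FPKM (knockdown). Both knockdown libraries were lower, but they lay further from each other than the nearer one lay from wild type, and the log2 change of −0.35 had a standard error of 0.16 (limma adjusted p = 0.244). The other 4 subunits had log2 changes between 0.04 and 0.14. SPCS1 was at 87.9 and 93.1 against 99.9 and 87.0 FPKM and overlapped, as did SEC11A and SEC11C. SPCS2 was higher without overlap at 114 and 97.7 FPKM, the latter only just above the wild-type 97.5 FPKM.

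Oligosaccharyltransferase occurs in a form with STT3A that works at the channel and a form with STT3B that follows later, around shared subunits. RPN2, a shared subunit, stood at 216 and 218 FPKM (wild type) versus 256 and 253 FPKM (knockdown). DDOST, another, was at 158 and 154 against 184 and 178 FPKM. For both genes each knockdown library was higher by a similar amount, at log2 changes of 0.23 and 0.21 (limma adjusted p = 0.127 and 0.155). RPN1 was close to no change, at 105 and 108 against 114 and 103 FPKM, and DAD1, a small shared subunit, overlapped at a log2 change of −0.08.

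OSTC, which joins the STT3A form to the channel, was lower in both knockdown libraries, at 103 and 100.2 against 91.3 and 83.4 FPKM. STT3A itself was slightly lower, at 189.5 and 194 against 181 and 178 FPKM. STT3B was at 61.4 and 60.1 against 61.1 and 76.5 FPKM, so that only MYC knockdown replicate 2 was above wild type. The log2 changes of OSTC, STT3A and STT3B were −0.22, −0.10 and 0.17, and none had a limma adjusted p under 0.192.

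**Figure D4:**
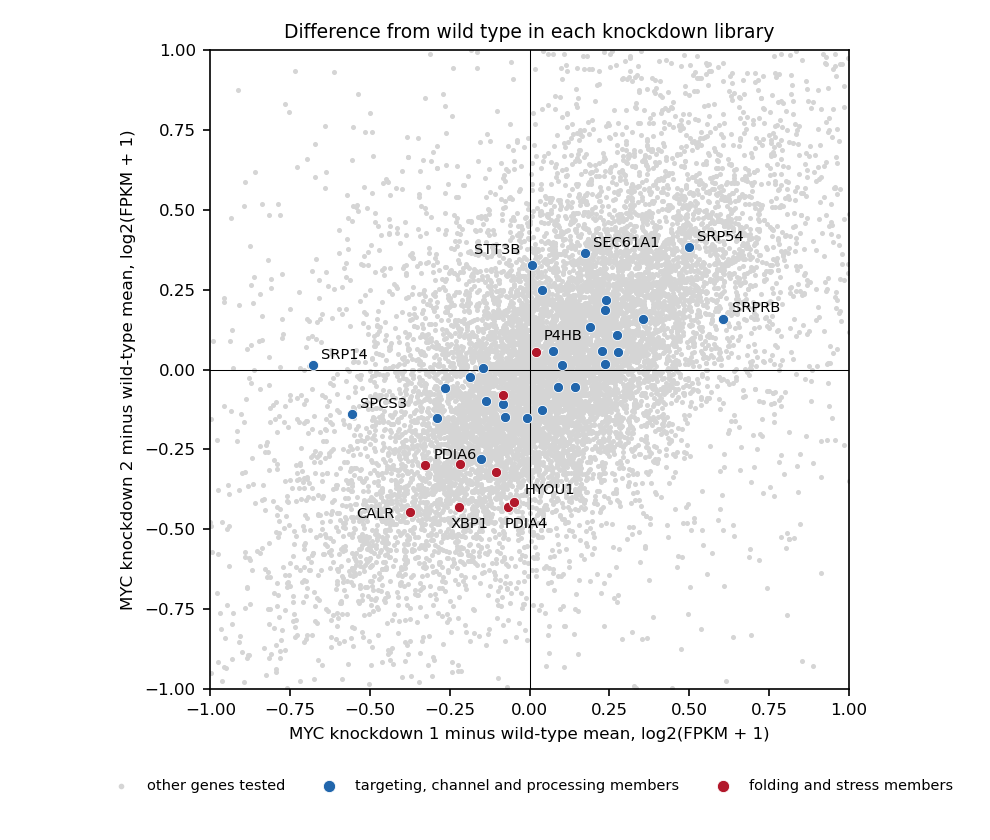
Difference from the wild-type mean, log2(FPKM + 1), in MYC knockdown replicate 1 (x axis) and replicate 2 (y axis) for the members (blue and red) and the other genes tested (grey; 800 genes beyond 1 on either axis are not drawn). Both axes share the wild-type mean. Folding and stress members (red) lie mostly in the lower left, with PDIA4 and HYOU1 near 0 on the x axis, and SRP14 lies far to the left at about 0 on the y axis.

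The 2 knockdown libraries placed 17 members below and 16 above the wild-type mean in both, and 5 on opposite sides. The 33 on the same side are 86.8% of the members, against 70.8% of all genes tested; both differences use the same wild-type mean, so the share is a description. Between them SRP14, SRPRB, SPCS3, HYOU1 and PDIA4 differed most, by 0.69, −0.45, 0.42, −0.37 and −0.37 on the log2 scale (replicate 2 minus replicate 1). The folding and stress members had a median of −0.11 in replicate 1 and −0.32 in replicate 2.

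Other genes of the same pathways were taken in 6 lists, chosen by function with earlier results of these data known. They gave 0 limma calls at an adjusted p of 0.05 among 151 genes tested. At an unadjusted p under 0.05 there were 28 higher and 17 lower, where 14.4% and 11.5% of all genes were higher and lower. Of 38 other lumenal chaperones and folding enzymes, limma called 4 higher and 2 lower at an adjusted p under 0.10 (5.5% and 4.91% of all genes), with a median log2 change of 0.07. TMX4, a membrane-bound thioredoxin-related protein, stood at 10.1 and 10.3 against 14.7 and 19.7 FPKM (log2 change 0.69). MANF, a secreted protein that ER stress induces and that binds HSPA5, stood at 81.0 and 82.0 against 54.8 and 52.3 FPKM (−0.60). HSPA5 had a log2 change of −0.52 (limma adjusted p = 0.0569) and HSP90B1 of −0.24 (limma adjusted p = 0.148). The list as a whole thus did not share the direction of its most abundant chaperones.

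Of 21 other translocation and membrane insertion factors, 2 were called higher and 1 lower at 0.10, among them EMC3, an insertase subunit, at a log2 change of 0.47, and SGTA, a co-chaperone of tail-anchored proteins, at −0.55. Of 25 other N-glycosylation genes 2 were called, both higher: ALG2, a mannosyltransferase, at 0.46 and MAGT1, an oxidoreductase of the STT3B form, at 0.36. Of 26 tested genes of ER-associated degradation 2 were called, both higher: ERLEC1, a lectin, at 0.55 and EDEM2, which starts mannose trimming, at 0.50. Of 23 genes of the COPII coat and export, 0 were called at 0.10, and 2 were higher and 0 lower at an unadjusted p under 0.05 by limma. Over all genes tested, limma called 5.5% higher and 4.91% lower at 0.10, and 14.4% and 11.5% at an unadjusted p under 0.05. These counts of calls are too small to give a direction. Without overlap, 7 translocation and insertion factors were higher and 4 lower, as were 13 and 4 N-glycosylation genes. Of the degradation genes 13 were higher and 3 lower, and of the COPII genes 9 and 1. Over all genes tested, 33.4% were higher and 25.2% lower without overlap. Each of these lists thus held more genes higher than lower, and whether this lean exceeds that of all genes was not tested.

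Among 18 sensors and effectors of the unfolded protein response, 0 were called higher and 2 lower at 0.10, where 5.5% and 4.91% of all genes were. TRIB3, a pseudokinase induced by ATF4, stood at 39.1 and 41.4 against 16.8 and 20.3 FPKM, and ATF4, the transcription factor translated when PERK is active, at 279 and 270.2 against 187 and 172 FPKM. The RNAs of the 3 sensors differed little: the log2 changes were −0.01 for ERN1 (IRE1), −0.04 for EIF2AK3 (PERK) and −0.03 for ATF6. DDIT3 (CHOP), a stress-induced transcription factor, stood at 11.9 and 11.6 against 9.67 and 8.71 FPKM (limma adjusted p = 0.155).

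**Figure D5:**
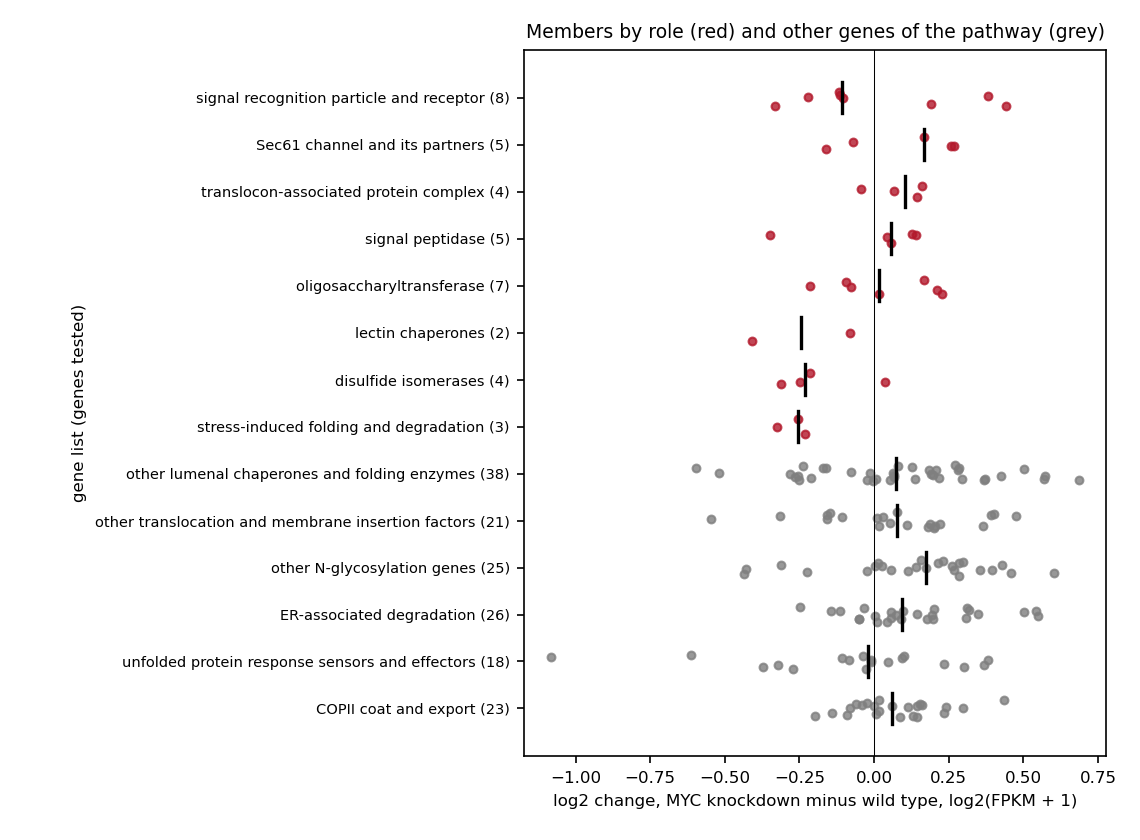
Log2 change (MYC knockdown minus wild type, log2(FPKM + 1)) of each gene tested, for the 8 roles of the members (red) and 6 related lists (grey); each point is a gene, the black bar its list's median, and points are spread vertically at random. The 3 folding and stress roles have medians between −0.26 and −0.23, while the medians of the related lists lie between −0.02 and 0.17.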

How the data were processed

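RNA was measured in 4 libraries, grouped by their titles. The RNA was total RNA taken up in Trizol, per the labels' protocols. The submitters' processing notes name STAR and RSEM; for versions, build, annotation and strandedness, nothing is stated in those notes or labels. The deposited values are FPKM, a unit inferred from column sums that differ between libraries. FPKM keeps no depth; steps in low values put the libraries at 100%, 81.3%, 73.7% and 78.9% of the depth of wild type replicate 1 (wild type 1 and 2, knockdown 1 and 2). Counts were not recovered, so no counting interval is given.

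A gene was kept when 2 or more libraries held 1 FPKM or more. Limma 3.58.1 in R 4.3.3 (lmFit, then eBayes with trend) was run on log2(FPKM + 1), which understates changes of low genes, with Benjamini-Hochberg adjustment over all 12953 genes. Members and lists were chosen with earlier results of these data known. Library values are given for members under an adjusted p of 0.10, the 3 highest and 3 lowest, the 3 nearest 0 and the largest change of each role; values of other members were added after they were seen. In the related lists, 2 genes per list under 0.10 and HSPA5, HSP90B1, ERN1, EIF2AK3, ATF6 and DDIT3 are named; SDF2L1, CRELD2, ERO1B and ALG12 were added as motif carriers. ALG9 had 2 rows, of which the one matching its gene ID was used. DERL3 was too low to test. Coordinates are from GENCODE release 29, promoters from RefSeq GRCh38.p14. Alternatives were other filters, pseudocount, scalings, a replicate block, protein-coding rows, a threshold of 0.10 and each library left out.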

Additional observations from a re-analysis of the deposited data

How the results depend on the processing

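At 0.05 limma called 0 members in the main analysis and 0 under every alternative that kept all 4 libraries. In the main analysis and without the filter on low values it called 0.0% of all genes. The same held with the pseudocount of 0.1, replicate block, quantile normalization and equal FPKM sums, so 0 members was the only outcome there. It called 3.23% of all genes with a mean of at least 5 FPKM, 2.38% with median-of-ratios scaling and 3.33% with protein-coding rows alone. In the main analysis the threshold of 0.10 gave 1 higher and 2 lower. Leaving out 1 library gave 0 to 8 members higher and 0 to 7 lower at 0.05, and 0 to 9 higher and 0 to 12 lower at 0.10. Calls were made at 0.05 only without a knockdown library, where only the close wild-type pair gives a spread and the lone library is assumed to vary like it; 26.1% and 26.3% of all genes were then called. The calls at 0.10, recomputed under each alternative after the data were seen, were 0 higher and 0 lower without the filter on low values and with the replicate block (0.0% and 5.58% of all genes). They were 1 and 0 with quantile normalization (SRP54; 9.36% of all genes), 1 and 3 with median-of-ratios scaling (XBP1 added; 12.8%), and 4 and 1 with equal FPKM sums (SRP54, DDOST, RPN2 and SEC62 against CALR; 17.2%). The cause of these moves was not tested. Same-numbered libraries did not deviate together (correlation −0.00587 over 12953 genes). This check sets the difference between the wild-type libraries against that between the knockdown libraries, so it cannot exclude that the numbers pair the samples. Members without overlap were 18 higher and 8 lower with equal FPKM sums, 9 higher and 19 lower with median-of-ratios scaling, and 13 to 18 higher and 16 to 20 lower with a library left out, where 71.3% to 86.9% of all genes did not overlap.

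The median over the members was −0.0577, 0.0366 with equal FPKM sums, −0.105 with median-of-ratios scaling, −0.0052 with quantile normalization, and −0.0638 to 0.0006 with a library left out. Of the 38 members 30 kept their sign under all 12 alternatives. With median-of-ratios scaling SPCS1, RPN1 and P4HB turned to −0.0054, −0.0314 and −0.0112. With equal FPKM sums SEC63, SSR2, DAD1 and CANX turned to 0.023, 0.0502, 0.0161 and 0.0146. With a library left out SRP14 ranged from −0.6801 to 0.0141, SEC63 from −0.1468 to 0.0057, SSR2 from −0.1276 to 0.0379, SPCS1 from −0.0555 to 0.1406 and RPN1 from −0.0559 to 0.0891. With equal FPKM sums SRP72, OSTC, PDIA3, PDIA4, HYOU1 and HERPUD1 shrank to −0.13, −0.12, −0.12, −0.15, −0.14 and −0.17, and SEC61B, SSR4 and STT3B grew to 0.26, 0.26 and 0.26.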
